A study of Mus musculus with 72 samples.

Results

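The 9 genes described here mark the lineages of lymphocytes, the white blood cells of adaptive immunity together with natural killer cells. They were chosen by name, as the genes whose Ensembl identifiers carry the symbols Cd3e, Cd3d, Cd4, Cd8a, Foxp3, Il7r, Ms4a1, Cd79a and Nkg7, and each was found, which makes 9 of the 55416 genes counted.

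RNA was sequenced from the epididymal white adipose tissue (eWAT), liver and pituitary of 24 male mice, in 72 libraries. The mice were FVB.129P2 animals, an FVB strain bred to keep its sight. Each of 4 groups held 6 mice, the groups held different mice, and the label numbers tie the 3 tissues of a mouse together. Pups of a dam were divided between the diets, but the labels do not name the dams, so litters could not enter the tests. The study asked how food shortage before weaning alters the later response to a fatty diet. FED-CTRL and FED-HFD mice came from dams that ate freely, and CR20-CTRL and CR20-HFD mice from dams given 20% less food from embryonic day 15 until the pups were weaned. From 8 weeks of age the CTRL groups ate a diet with 10% fat and the HFD groups one with 45% fat, for 10 weeks by the paper, while the labels allow 10 or 16 weeks.

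Values are deposited read counts, scaled to library size with TMM factors and given as CPM. The libraries held 9842813 to 27601208 counted reads each, with medians of 19723789.5 in eWAT, 14479037 in liver and 21931340.5 in pituitary. A level of 3 counts, taken as the floor below which a gene was not measurable, was 0.110 to 0.333 CPM depending on the library. These floors cover counting error only. Levels of different genes are ranked only after division by exon length in kb, as RPKM. Sums over gene lists, and the share of a gene in them, use CPM without that division. TMM factors were set within each tissue, and the paper extracted liver RNA for sequencing by another method than RNA of eWAT and pituitary. Levels in different tissues are therefore not on a common scale.

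Lymphocytes read antigen through receptors that hand the signal to invariant chains, the CD3 proteins in T cells and CD79 in B cells, while natural killer cells kill by releasing granules without an antigen receptor. Fat tissue holds resident T cells, regulatory T cells, innate lymphoid cells and B cells next to a larger population of macrophages, and B cells of the abdomen also gather in small lymphoid clusters of the fat. Obesity is known for shifting this mixture of cells in fat.

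The T cell members are Cd3e and Cd3d, chains of the CD3 complex that carries the T cell receptor's signal, Cd4 and Cd8a, the coreceptors that split helper from cytotoxic T cells, and Foxp3, the transcription factor of regulatory T cells. Il7r encodes the receptor chain for interleukin-7, which keeps resting lymphocytes alive. Ms4a1 (the protein CD20) and Cd79a (a signal chain of the B cell receptor) mark B cells, and Nkg7 encodes a protein of cytotoxic granules. In GRCm39, Cd3e (ENSMUSG00000032093, chromosome 9, 44910037 to 44920925) and Cd3d (ENSMUSG00000032094, chromosome 9, 44893083 to 44899173) are neighbours on opposite strands. Il7r (ENSMUSG00000003882) lies on the minus strand of chromosome 15, from 9505874 to 9530262, and Cd79a (ENSMUSG00000003379) on the plus strand of chromosome 7, from 24596740 to 24601622. The GENCODE annotation has no other gene over Cd3d, Cd4, Cd8a, Il7r, Cd79a or Nkg7. It has 2 over Cd3e, 1 over Ms4a1 and 4 over Foxp3, among them the protein-coding genes Ppp1r3f and Ccdc22, so reads at those loci can be shared. Over Cd3e and Foxp3, 1 of these genes lies on the member's own strand.

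Promoter sequences from RefSeq (build GRCm38.p6, 250 bases before to 50 after the start of transcription) were found for 7 of the 9 members, and Cd4 and Ms4a1 had no entry. The 3 printed here belong to the T cell, interleukin-7 receptor and B cell members that the values below set against each other, Cd3e (chr9:45009562-45009861, minus strand), Il7r (chr15:9529827-9530126, minus strand) and Cd79a (chr7:24897247-24897546, plus strand). Capitals mark GGAAGT, a core read by ETS factors, or its reverse complement, which all 3 hold.
Cd3e: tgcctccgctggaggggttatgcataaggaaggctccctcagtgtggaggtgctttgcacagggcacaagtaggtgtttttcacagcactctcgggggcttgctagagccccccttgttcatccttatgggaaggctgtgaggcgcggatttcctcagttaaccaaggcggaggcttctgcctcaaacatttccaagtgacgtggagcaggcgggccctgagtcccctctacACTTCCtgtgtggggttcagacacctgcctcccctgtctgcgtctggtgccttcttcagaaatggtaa
Il7r: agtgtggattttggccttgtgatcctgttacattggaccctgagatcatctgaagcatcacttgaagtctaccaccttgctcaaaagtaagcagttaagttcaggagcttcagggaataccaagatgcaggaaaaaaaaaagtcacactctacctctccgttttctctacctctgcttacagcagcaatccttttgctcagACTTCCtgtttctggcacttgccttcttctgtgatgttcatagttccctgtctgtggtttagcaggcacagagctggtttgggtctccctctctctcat
Cd79a: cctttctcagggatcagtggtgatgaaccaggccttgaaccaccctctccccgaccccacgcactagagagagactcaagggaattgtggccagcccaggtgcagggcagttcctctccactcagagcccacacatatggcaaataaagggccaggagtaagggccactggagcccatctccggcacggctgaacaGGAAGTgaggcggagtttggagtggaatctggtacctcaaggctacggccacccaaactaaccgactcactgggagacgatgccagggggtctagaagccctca
The match began 18 bases before the start in Cd3e, 49 before it in Il7r and 54 before it in Cd79a. With both strands searched, GGAAGT was in the promoters of 4 members (Cd3d the other) and in 23.8% of all 32851 mouse promoters in the table. TGTGGT, a core read by RUNX factors, was in those of 2 members, Il7r and Nkg7, and in 16.8% of all. The E-box CANNTG was in all 7 and in 72.3% of all, and TGANTCA, read by AP-1, was in 0 of the 7 and in 7.81% of all. These are matches of letters and say nothing of binding.

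The tissues carried the transcripts of their labels. Summed CPM of 6 adipocyte genes in eWAT had a median of 17221, led by Cfd, the hepatocyte gene Alb in liver had a median of 65050, and all 6 genes of the pituitary list passed the filter in pituitary. A few eWAT libraries stood apart. Transcripts of liver were high in FED-HFD 10 (Alb 514 CPM, Apoa1 110), CR20-CTRL 5 (Alb 405, Apoa1 41.4) and FED-HFD 13 (Alb 97.0, Apoa1 14.9), while no other eWAT library had over 1.65 CPM of Apoa1. Transcripts of the epididymis, the organ this fat surrounds, were seen in CR20-CTRL 4 (Adam7 133 CPM), CR20-CTRL 5 (Adam7 51.9) and CR20-HFD 6 (Adam7 4.31, Crisp1 22.1), with both genes at 0 in the other 21. FED-HFD 23 had the lowest Adipoq, at 644 CPM, and the highest Ptprc, the common leukocyte gene, at 309 CPM. Across FED-HFD, the group with the highest Il7r, Ptprc was 70.8 to 309 CPM. No mouse of the other groups had over 74.8 CPM of Ptprc. Called results in eWAT were also fitted without the 5 libraries that held liver or epididymis transcripts, a choice made after the values were seen.

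In eWAT the order of the members by median RPKM was Nkg7 (3.48), Cd79a (3.47), Il7r (2.30), Ms4a1 (0.777), Cd4 (0.474), Cd3d (0.445), Cd3e (0.297), Foxp3 (0.0841) and Cd8a (0.0803). Several neighbours in this order did not separate mouse by mouse. Nkg7 was above Cd79a in 15 of 24 libraries, Cd79a above Il7r in 13, Ms4a1 above Cd4 in 15, Cd4 above Cd3d in 14 and Foxp3 above Cd8a in 13. Cd3e was above Foxp3 in 24 of 24.

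Liver and pituitary ranked the members differently. In liver Nkg7 led (1.81 RPKM), followed by Cd4 (1.00), Cd79a (0.494), Cd3d (0.301), Cd3e (0.197), Cd8a (0.106), Il7r (0.0630), Ms4a1 (0.0598) and Foxp3 (0.0174), and Cd3d and Cd3e (Cd3d higher in 15 of 24) and Il7r and Ms4a1 (Il7r higher in 11) were not separated. In pituitary Cd79a led (3.33 RPKM), ahead of Nkg7 (1.14), Cd4 (0.716) and Cd3d (0.117), and the other 5 had medians of 0.00988 to 0.0463, at or under the floor in many libraries.

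**Figure D1:**
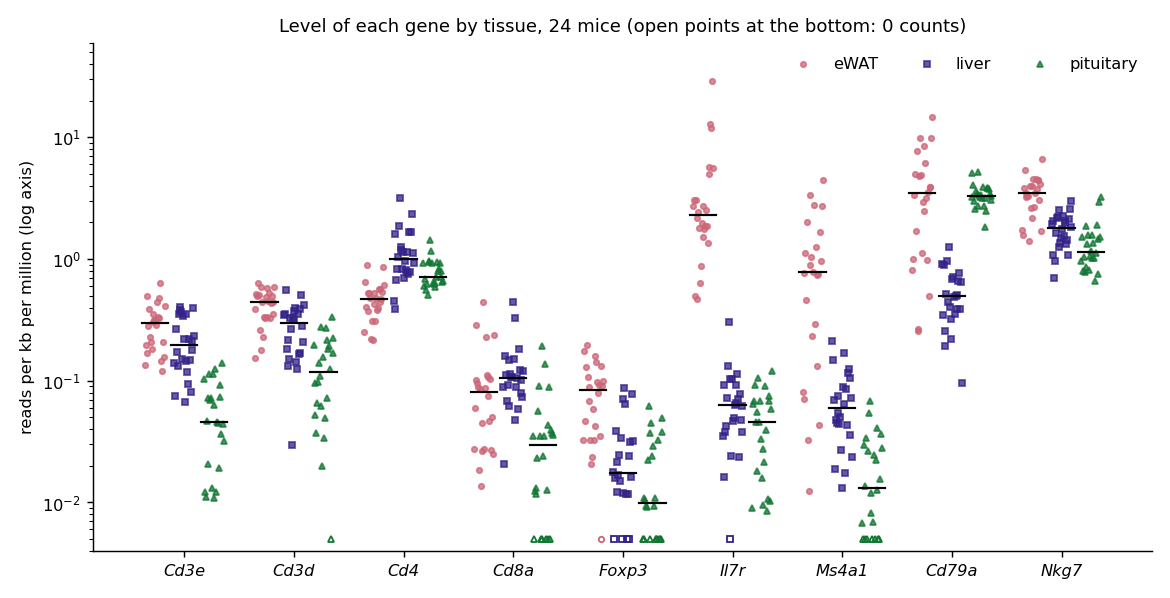
Level of each of the 9 genes in RPKM (log axis) in eWAT, liver and pituitary of 24 mice, with 1 point per library and a bar at the median. Il7r in eWAT lies above the other tissues in every mouse, and Cd79a in pituitary is as high as in eWAT although Ms4a1 is near 0 there.

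Il7r was higher in eWAT than in liver and in pituitary in 24 of 24 mice, with medians of 10.7, 0.294 and 0.212 CPM. Cd4 went the other way, and was higher in liver than in eWAT in 22 mice and higher in pituitary than in eWAT in 21. Cd3e, in contrast, was higher in eWAT than in pituitary in 24 mice and higher in eWAT than in liver in 15. The coreceptor and the CD3 chain thus ranked the tissues in different orders.

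Cd79a also parted from the other B cell member. It was higher in pituitary than in liver in 24 of 24 mice, and above eWAT in 13. Pituitary Cd79a ran from 2.78 to 7.85 CPM (median 5.06), while Ms4a1 did not pass 0.426 CPM there and was at 0 in 7 libraries. Of the 17 genes in a list of B cell and plasma cell genes, 7 passed the filter in pituitary against 17 in eWAT and 11 in liver. The most abundant gene of that list in pituitary was Ighm, with a median of 9.83 CPM against 400.2 in eWAT. Which cells of the pituitary carried Cd79a was not tested.

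Before group comparisons, edgeR dropped genes with low counts, which left 15964 genes in eWAT, 13787 in liver and 16657 in pituitary. Of the members, 8 passed in eWAT (Cd8a did not), 5 in liver (Cd3e, Cd3d, Cd4, Cd79a and Nkg7) and 4 in pituitary (Cd3d, Cd4, Cd79a and Nkg7). Those left out are given as counts and CPM. A gene was called in eWAT and liver if its adjusted p was 0.055 or less and its log2 fold change (log2FC) was 1 or more in either direction. In pituitary the limit was an adjusted p under 0.05, and p-values were adjusted over all genes tested. The comparisons ask what the fatty diet did in each maternal group (HFD against CTRL), what the dam's diet did at each diet (CR20 against FED), and whether the response to fat differed between maternal groups (the interaction, CR20-HFD minus CR20-CTRL less FED-HFD minus FED-CTRL). The first 2 comparisons given, FED-HFD against FED-CTRL and CR20-HFD against FED-HFD, share the 6 FED-HFD mice, and the interaction uses them too.

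The T cell receptor members were low and overlapped between groups. Cd3e in eWAT ran from 0.492 to 2.62 CPM (10 to 43 counts per library, median 1.21 CPM), with medians of 1.36 in FED-CTRL, 0.747 in FED-HFD, 0.976 in CR20-CTRL and 1.09 in CR20-HFD. FED-HFD held both its lowest value (mouse 12) and its highest (mouse 10). Cd3d ran from 0.397 to 1.65 CPM (median 1.15), with group medians of 1.22, 1.14, 1.30 and 0.767 in the same order. The log2FC of FED-HFD against FED-CTRL was -0.41 (SE 0.366, adjusted p 0.507) for Cd3e and -0.04 (SE 0.293, adjusted p 0.956) for Cd3d by edgeR. Of CR20-HFD against FED-HFD it was -0.04 and -0.36, with adjusted p of 0.957 and 0.438. In the first comparison, leaving out 1 mouse moved Cd3e to between -0.81 (without FED-HFD 10) and -0.25 (without FED-HFD 12). The other settings gave -0.81 to -0.35 for it, with no call.

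Cd4 in eWAT had a lowest, median and highest level of 1.41, 1.87 and 2.56 CPM in FED-CTRL, 1.98, 2.48 and 3.86 in FED-HFD, 1.14, 2.08 and 4.01 in CR20-CTRL, and 0.973, 1.78 and 2.37 in CR20-HFD. The groups overlapped, with 2 of 6 FED-HFD mice above all FED-CTRL mice and 3 of 6 CR20-HFD mice below all FED-HFD mice. The log2FC was 0.44 for FED-HFD against FED-CTRL (adjusted p 0.343, exact permutation p 0.0411) and -0.62 for CR20-HFD against FED-HFD (adjusted p 0.143, exact permutation p 0.0476). Neither passed the adjusted threshold.

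Cd8a had 1 to 30 counts in an eWAT library (0.0495 to 1.61 CPM, highest in CR20-HFD 46) and reached 3 counts in 16 of 24, with medians of 0.355, 0.176, 0.339 and 0.129 CPM in FED-CTRL, FED-HFD, CR20-CTRL and CR20-HFD. Foxp3 had 0 to 18 counts. Its lowest, median and highest level was 0.149, 0.407 and 0.725 CPM in FED-CTRL, 0, 0.418 and 0.609 in FED-HFD, 0.149, 0.542 and 0.903 in CR20-CTRL, and 0.0955, 0.209 and 0.404 in CR20-HFD. The value of 0 was mouse 12, whose floor was 0.148 CPM. In CR20-HFD, 3 of 6 mice were below all CR20-CTRL mice, with a log2FC of -1.25 (SE 0.573, adjusted p 0.828, exact permutation p 0.0628), which did not pass.

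Il7r differed from the T cell receptor members in level and in pattern. Its lowest, median and highest level in eWAT was 6.31, 8.68 and 12.7 CPM in FED-CTRL, 23.1, 41.5 and 136 in FED-HFD, 2.21, 11.4 and 14.4 in CR20-CTRL, and 2.97, 7.70 and 11.4 in CR20-HFD. Each of the 6 FED-HFD mice was above each mouse of the other groups. How many of all genes separate FED-HFD in this way was not counted. Within FED-HFD mouse 23 was highest, at 136 CPM. Mice 12 and 13 had 60.6 and 56.2 CPM and the other 3 had 23.1 to 26.8. The other groups overlapped one another, and CR20-CTRL 33 and 48, at 2.34 and 2.21 CPM, were the lowest of all. In bulk tissue, fewer cells of a type and less RNA per cell cannot be told apart.

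**Figure D2:**
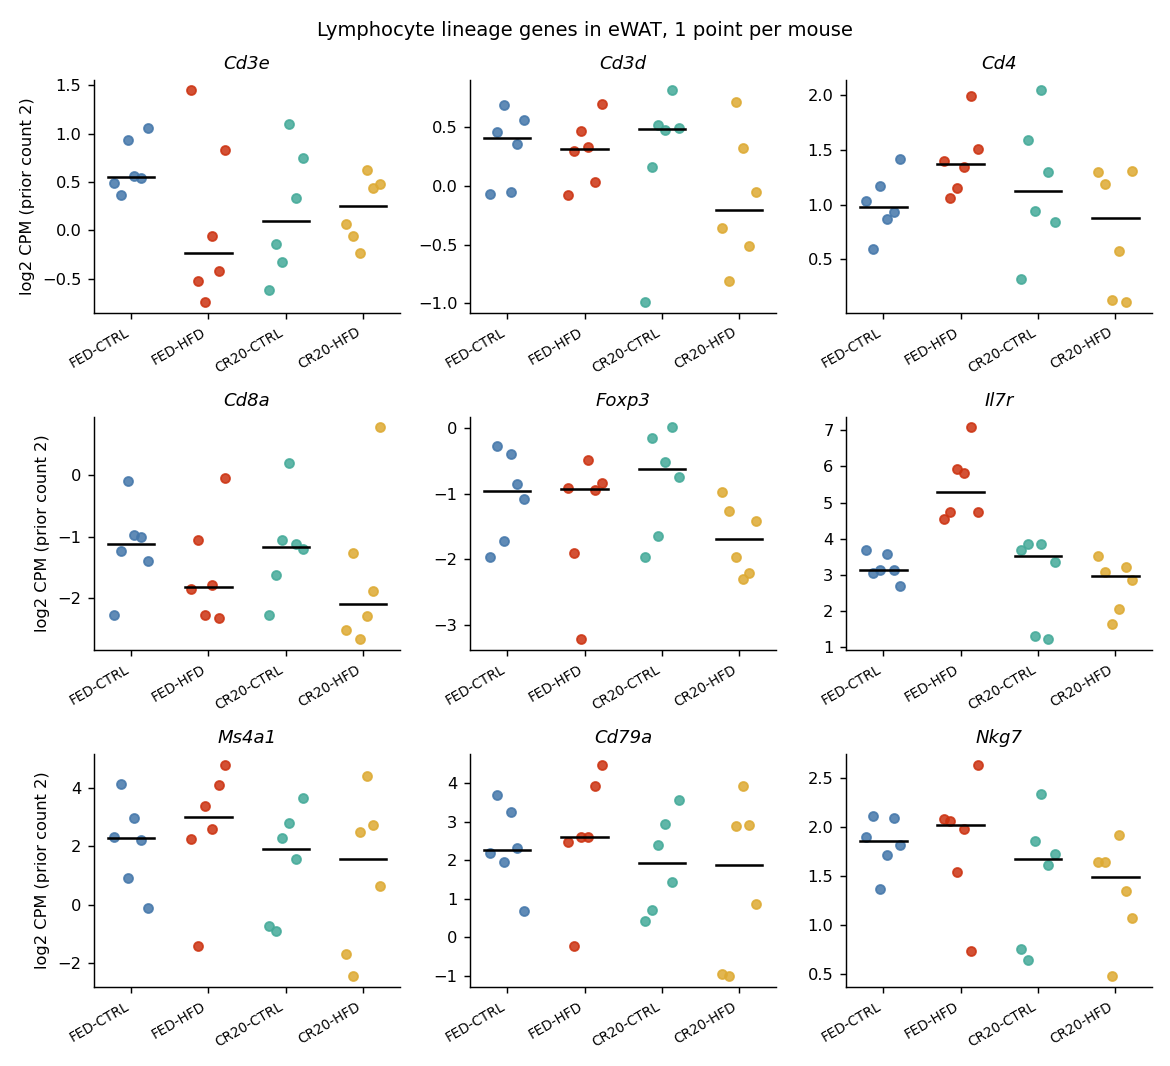
Log2 CPM (prior count 2) of the 9 genes in eWAT by group, with 1 point per mouse, 6 mice per group, and a bar at the median. Among these 9 genes Il7r alone separates FED-HFD from the other groups, while Ms4a1 and Cd79a spread widely within every group.

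In FED-HFD against FED-CTRL, Il7r was the only member called out of 8 tested, by edgeR, where 4.18% of all genes were called higher and 0.514% lower. Its log2FC was 2.54 (SE 0.476, adjusted p 0.00297), higher in 6 of 6 mice, and the exact permutation p was 0.00216, the smallest possible with 6 mice against 6. Leaving out 1 mouse at a time gave 2.04 (without FED-HFD 23) to 2.70 (without FED-HFD 10). Without the 5 libraries that held liver or epididymis transcripts it was 2.74 (adjusted p 0.00397). The paper already reports Il7r in this fat as higher in this comparison and lower in CR20-HFD against FED-HFD, by sequencing and by quantitative PCR. The calls of Il7r in these comparisons thus repeat a reported result of the same data. The median log2FC of the 8 members was 0.26 against -0.00 over all genes, with 5 above 0.

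In CR20-HFD against FED-HFD, Il7r was again 1 call among 8, where 4.78% of all genes were called lower and 0.714% higher. The log2FC was -2.94 (SE 0.488, adjusted p 0.000718), lower in 6 of 6 mice, with an exact permutation p of 0.00216. It was -3.12 to -2.43 with 1 mouse left out and -3.32 without the 5 libraries (adjusted p 0.00197). All 8 tested members had a log2FC below 0, with a median of -0.63 against 0.02 over all genes, but the 7 other than Il7r had adjusted p of 0.143 to 0.957. The sign of Cd3e there turned in 3 of the alternatives and in 4 of 12 fits with 1 mouse left out, and that of Foxp3 turned with limma voom with quality weights (from -0.64 to 0.20).

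In CR20-HFD against CR20-CTRL, 0 of 8 members were called by edgeR, where 0% of all genes were, and 1 member (Foxp3) had an unadjusted p under 0.05 beside 6.03% of all genes. In CR20-CTRL against FED-CTRL, 0 of 8 were called and 0 had an unadjusted p under 0.05, where edgeR called 0% of all genes and 7.39% had such a p. By limma voom with or without quality weights and by DESeq2 the members called were also 0 in both comparisons, while DESeq2 called 147 genes of all in the second. Il7r had log2FC of -0.39 (SE 0.472, adjusted p 0.952) and -0.01 (SE 0.465, adjusted p 0.998). The median log2FC of the members was -0.29 and -0.13, against -0.02 and 0.02 over all genes.

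In the interaction, Il7r was 1 of 8 members called, where 2.23% of all genes were called lower and 0.0438% higher. Its log2FC of -2.93 (SE 0.664, adjusted p 0.0322) means that the response to fat was smaller in CR20 than in FED offspring by that amount on the log2 scale. It was lost in 9 of 24 fits with 1 mouse left out (without CR20-CTRL 5, 47 or 49, CR20-HFD 31 or 32, or FED-CTRL 15, 16, 41 or 42), at adjusted p of 0.0569 to 0.0720 and a log2FC of -2.90 to -2.76. It was also lost with limma voom with quality weights (log2FC -2.02, adjusted p 0.101), with voom without weights (-2.47, adjusted p 0.141) and without the 5 libraries (-2.93, adjusted p 0.0880), and kept with DESeq2. Over all genes, edgeR called 363 in the interaction, voom with weights 109, voom without weights 0 and DESeq2 665. Adgre1, Cd68, Csf1r, Fcgr1, Itgax, Apoa1 and Ttr, named below, were also called in the interaction. All of these lost their calls in the same 9 fits and without the 5 libraries. Adgre1 and Cd68 had adjusted p of 0.0569 to 0.0720 in those 9 fits.

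A list of 14 genes places Il7r among its partners, the shared gamma chain, the ligands and the signal chain of interleukin-7 and related cytokines. All 14 passed the filter in eWAT, and Il7r was the only 1 called, higher in FED-HFD against FED-CTRL and lower in CR20-HFD against FED-HFD and in the interaction, where 4.18%, 4.78% and 2.23% of all genes were. Il2rg, the gamma chain that pairs with Il7r, had a median of 9.57 CPM in FED-CTRL and 13.3 in FED-HFD (log2FC 0.63, adjusted p 0.0688), and 9.12 in CR20-HFD (log2FC -0.68 against FED-HFD, adjusted p 0.0402). Crlf2, which pairs with Il7r in the receptor for the cytokine TSLP, had 7.48 and 12.3 CPM in FED-CTRL and FED-HFD (log2FC 0.87, adjusted p 0.0136). Il15ra had 39.8 and 21.1 CPM in the same groups (log2FC -0.71, adjusted p 0.0231). Each of these 3 was under the fold threshold.

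None of the ligands on the list, Il7, Tslp and Il15, was called, and their difference from Il7r was not tested. Il7 itself, named after its values were seen, had a median of 1.91 CPM in FED-CTRL, 1.60 in FED-HFD and 1.78 in CR20-HFD, with log2FC of -0.20 and 0.08 (adjusted p 0.618 and 0.851). Tslp had 1.95, 1.52 and 2.28 CPM (log2FC -0.45 and 0.73, adjusted p 0.335 and 0.0892). The most abundant gene of the list was the kinase gene Jak1 (median 203 CPM), whose log2FC in CR20-HFD against FED-HFD was -0.26 (adjusted p 0.00852). The list's median log2FC was 0.21 and -0.22 in the 2 comparisons.

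Of 25 genes in a list of T cell receptor and signalling genes, 22 passed the filter in eWAT, and 1 was called higher in FED-HFD against FED-CTRL and 1 lower in CR20-HFD against FED-HFD, both times Lat, an adaptor that the receptor's kinases phosphorylate to pass the signal on. Of all genes, 4.18% were called higher in the first and 4.78% lower in the second. Lat had a median of 2.80 CPM in FED-CTRL, 5.09 in FED-HFD and 2.16 in CR20-HFD, with log2FC of 1.53 (SE 0.349, adjusted p 0.00728) and -1.67 (SE 0.353, adjusted p 0.00294). Its FED-HFD values, from 3.70 to 20.4, did not overlap FED-CTRL and overlapped CR20-HFD. Without FED-HFD 23 the first call ended (log2FC 0.95, adjusted p 0.0273) and the second was -1.08, while without the 5 libraries they were 1.76 and -1.97. The median log2FC of the list was -0.04 and -0.18.

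The genes of the T cell receptor's constant regions, Trac, Trbc1, Trbc2 and Trdc, were picked after their values were seen, and none passed. Trac had medians of 2.53, 2.33 and 1.58 CPM in FED-CTRL, FED-HFD and CR20-HFD (log2FC 0.08 and -0.58, adjusted p 0.899 and 0.225), Trbc1 had 2.27, 2.54 and 2.16 CPM (log2FC 0.42 and -0.40, adjusted p 0.393 and 0.378), and Trbc2 had 3.43, 2.65 and 2.54 CPM (log2FC -0.29 and 0.09). Trdc, of gamma delta T cells, had log2FC of 0.69 and -0.26 (adjusted p 0.302 and 0.712). Of the genes next in p, Cd2, an adhesion receptor, had log2FC of 0.40 and -0.58 (adjusted p 0.363 and 0.144), and the costimulatory receptor Cd28 had -0.87 in CR20-HFD against FED-HFD (adjusted p 0.0623). Thy1, the most abundant gene of the list, had medians of 25.0, 23.6 and 24.3 CPM. Summed over the list, the median was 67.9 CPM in FED-CTRL, 70.9 in FED-HFD, 80.3 in CR20-CTRL and 60.7 in CR20-HFD. Thy1, which cells other than T cells also carry, made up 23.7% to 51.8% of that sum, and without it the medians were 44.8, 50.3, 41.0 and 40.4 CPM.

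Of 10 regulatory T cell genes 8 were tested, and 1 was called, Il1rl1, the receptor for interleukin-33, which mast cells and innate lymphoid cells also carry. It had a lowest, median and highest level of 3.63, 4.13 and 4.71 CPM in FED-CTRL, 3.75, 7.09 and 16.3 in FED-HFD, and 1.55, 3.30 and 3.89 in CR20-HFD. In CR20-HFD against FED-HFD it was lower (log2FC -1.41, SE 0.262, adjusted p 0.00121, and -1.57 without the 5 libraries), where 4.78% of all genes were called lower, and in FED-HFD against FED-CTRL its 0.95 was under the fold threshold (adjusted p 0.0198). The rest of the list gave no call, and its median log2FC was -0.18 and 0.02. Gata3 had log2FC of -0.75 and Klrg1 of -0.70 in FED-HFD against FED-CTRL (adjusted p 0.311 and 0.247), and in CR20-HFD against FED-HFD Il2ra had -0.45 and Ikzf2 0.37 (adjusted p 0.0775 and 0.248). Tnfrsf18, the most abundant, had a median of 2.91 CPM.

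Of 12 macrophage genes, all tested, 4 were called higher in FED-HFD against FED-CTRL (Adgre1, Cd68, Lyz2 and Itgam), 5 lower in CR20-HFD against FED-HFD (those 4 and Fcgr1) and 4 lower in the interaction (Adgre1, Cd68, Csf1r and Fcgr1), with median log2FC of 0.72, -0.95 and -1.04. Of all genes, 4.18%, 4.78% and 2.23% were called in these directions. Without FED-HFD 23 the first calls of Lyz2 (log2FC 0.82) and Itgam (0.58, adjusted p 0.282) and the second of Itgam (-0.90) ended, the first of Itgam ending in 8 of 12 such fits. The 4 interaction calls ended in 9 to 18 of 24 fits with 1 mouse left out. All ended without the 5 libraries (log2FC -2.52 to -1.21, adjusted p 0.0880 to 0.112). Their summed level had a lowest, median and highest of 1677, 2072 and 2382 CPM in FED-CTRL, 2365, 3613 and 10033 in FED-HFD, 1386, 1974 and 2738 in CR20-CTRL, and 1448, 1854 and 2318 in CR20-HFD. None was at 0, and Lyz2 was the most abundant (median 959 CPM). The highest sum, 10033 CPM, belonged to FED-HFD 23, which also had the highest Il7r, and the next in FED-HFD, mouse 12 at 4149 and mouse 13 at 3797, were the next for Il7r as well.

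Of 8 dendritic cell genes, all tested and none at 0, 1 was called higher in FED-HFD against FED-CTRL (Itgax). In CR20-HFD against FED-HFD 4 were called lower (Itgax, Flt3, Ccr7 and Siglech), and 1 was called lower in the interaction (Itgax). Of all genes, 4.18%, 4.78% and 2.23% were called in these directions. Itgax, the most abundant and also a gene of macrophages, had medians of 27.5, 95.5 and 22.6 CPM in FED-CTRL, FED-HFD and CR20-HFD (log2FC 2.25 and -2.71, adjusted p 0.0116 and 0.00292). The call of Ccr7 ended without FED-HFD 23 (adjusted p 0.121). That of Siglech ended in 3 of 12 fits with 1 mouse left out and that of Itgax in the interaction in 17 of 24. Both ended without the 5 libraries (log2FC -1.16 and -3.02, adjusted p 0.0729 and 0.125). Over the 24 eWAT libraries, with each group's mean subtracted from log2 values, the Pearson r of Il7r with the summed dendritic cell list was 0.921 (Spearman rho 0.947), with the macrophage list 0.663 (rho 0.601) and with the adipocyte list -0.698 (rho -0.610). With the T cell list it was 0.102 (rho 0.0678), with the regulatory T cell list -0.0449, with the B cell list 0.114 and with the NK list -0.0968. The r of the dendritic cell list was mostly that of Itgax, which made up 12.2% to 89.2% of its list's sum and had an r of 0.949 alone, since the list without Itgax had 0.107 (rho 0.00261). Without their most abundant gene, a step added after the values were seen, the macrophage list had 0.559, the adipocyte list -0.622, the T cell list 0.183, the regulatory T cell list 0.0269, the B cell list -0.0956 and the NK list -0.132. These r describe libraries that share depth and tissue pieces, and without the 2 libraries farthest from the median sum the 7 full lists had 0.921, 0.576, -0.676, 0.339, -0.100, 0.243 and 0.0665 in this order. The part of myeloid cells in the Il7r values was not tested.

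**Figure D3:**
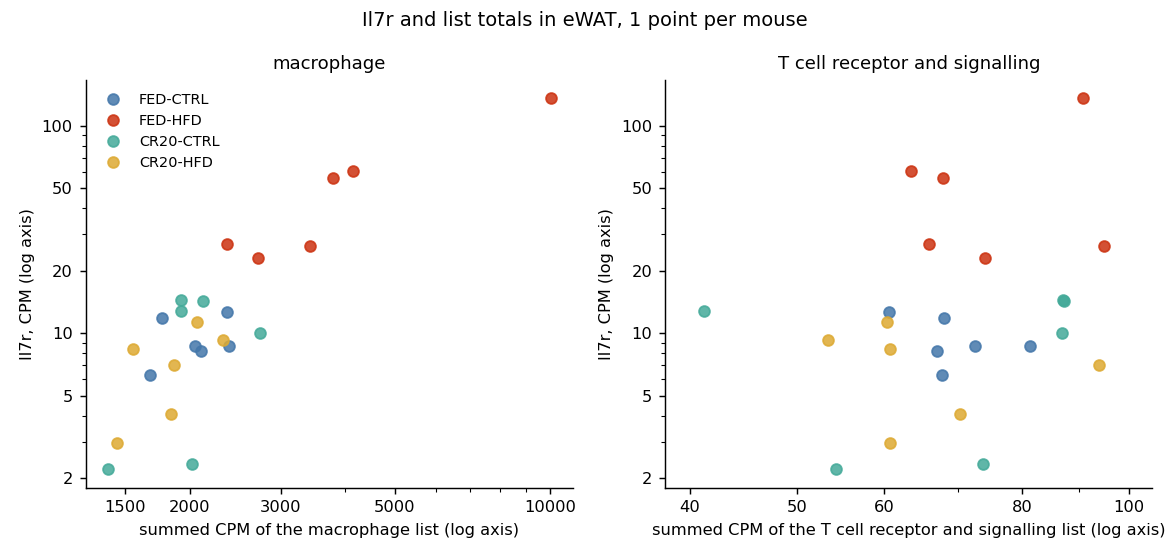
Il7r in CPM against the summed CPM of 12 macrophage genes (left) and of 25 T cell receptor and signalling genes (right) in eWAT (log axes), with 1 point per mouse. FED-HFD mice reach 10033 CPM of the macrophage list but share the range of the other groups on the T cell list.

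The genes most like Il7r in eWAT, by Pearson r of log2 CPM over 24 libraries after each group's mean was subtracted and out of 15963 genes compared, were Arhgap25 (0.970), Adam8 (0.965), Tdrd9 (0.965), Cd84 (0.958) and Slc37a2 (0.958). None is on the lymphocyte lists. For Cd3e they were Dennd4a (0.772), Atp10a (0.737), Tbx21 (0.737), Vgll3 (0.709) and Trub2 (0.700), of which Tbx21, a transcription factor of type 1 T cells and natural killer cells, is on the NK and cytotoxic list. Il7r and Cd3e themselves had an r of -0.191 (rho -0.155), and Il7r and Cd3d of -0.552 (rho -0.590). Of 28 pairs among the 8 members tested, Ms4a1 and Cd79a had the highest r, at 0.980 (rho 0.980), followed by Il7r with Cd3d in size and by Cd3e with Nkg7 (0.524, rho 0.423).

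The B cell members varied more within groups than between them. Ms4a1 in eWAT had a lowest, median and highest level of 0.823, 4.71 and 17.3 CPM in FED-CTRL, 0.268, 8.10 and 27.6 in FED-HFD, 0.435, 3.80 and 12.4 in CR20-CTRL, and 0.0774, 3.50 and 21.0 in CR20-HFD. Cd79a had 1.51, 4.68 and 12.8 CPM, then 0.751, 5.98 and 22.3, then 1.24, 3.88 and 11.8, and then 0.387, 4.52 and 15.2 in the same order of groups. Every group overlapped every other for both genes, and a single group spanned most of the range.

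The log2FC of FED-HFD against FED-CTRL was 0.83 for Ms4a1 (SE 0.934, adjusted p 0.617) and 0.60 for Cd79a (adjusted p 0.660). Of CR20-HFD against FED-HFD it was -0.91 (SE 0.937, adjusted p 0.543) and -0.76 (SE 0.754, adjusted p 0.525). None passed. Single mice moved these values, with 0.31 to 1.47 and 0.12 to 0.95 in the first comparison (lowest without FED-HFD 40, highest without FED-CTRL 15) and -1.97 to -0.39 and -1.40 to -0.29 in the second (lowest without CR20-HFD 32, highest without FED-HFD 40). Genes most like Cd79a over the 24 libraries were Ms4a1 (0.980), Cxcr5 (0.980), Fcer2a (0.978), Cd79b (0.970) and Cr2 (0.958), all genes of B cells.

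The 5 lowest Ms4a1 values were 0.0774 CPM in CR20-HFD 7, 0.202 in CR20-HFD 6, 0.268 in FED-HFD 11, 0.435 in CR20-CTRL 5 and 0.496 in CR20-CTRL 4. Among them, the CR20 mice 4, 5, 6 and 7 had 42.7, 42.9, 18.97 and 74.2 CPM of Ccl21a, a chemokine of lymphatic vessels and lymph nodes, while the other 20 eWAT libraries had at most 1.90 (0.268 in FED-HFD 11). Mice 4, 5 and 6 are those whose fat also held epididymis transcripts. Cxcl13, the chemokine that draws B cells, was 0.149, 1.60, 0.269 and 0.619 CPM in these mice and 0.0536 in FED-HFD 11, against a median of 16.5 CPM over all 24. In the liver of the same 4 mice, Ccl21a was 0.0816 to 1.75 CPM, within the range of the others.

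These genes belong to a list of 6 genes of lymph node stroma, of which 3 passed the filter in eWAT, Fdcsp was at 0 in all 24 libraries and Cxcl13 was the most abundant. Ccl21a was called higher in CR20-HFD against FED-HFD (log2FC 7.97, SE 2.26, adjusted p 0.0200), where 0.714% of all genes were. The FED-HFD mice had 0 to 0.268 CPM, so the size of this log2FC is poorly fixed. In CR20-HFD it rests on mice 6 and 7 (18.97 and 74.2 CPM), since the others had at most 0.756 CPM. The call ended in 1 of 12 fits with 1 mouse left out, that without mouse 7 (log2FC 5.98, adjusted p 0.0768) and was kept without the 5 libraries (adjusted p 0.0434). The list summed to medians of 18.7 CPM in FED-CTRL, 15.9 in FED-HFD, 34.3 in CR20-CTRL and 27.2 in CR20-HFD. What part lymphoid tissue in the dissected fat had in the B cell values was not tested.

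Ighm, the heavy chain gene of IgM, did not vary in this way. It ran from 172 to 728 CPM in eWAT, was the most abundant gene of the B cell list, and was 408 CPM in FED-HFD 11 and 323 in CR20-HFD 7, where Cd79a was 0.751 and 0.387. Igkc, a light chain gene picked after its values were seen, was low with Cd79a, at 2.14 and 2.86 CPM in those mice against a median of 47.2. In those mice the light chain gene was thus low while the heavy chain gene was not. How these genes relate over all libraries was not tested.

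**Figure D4:**
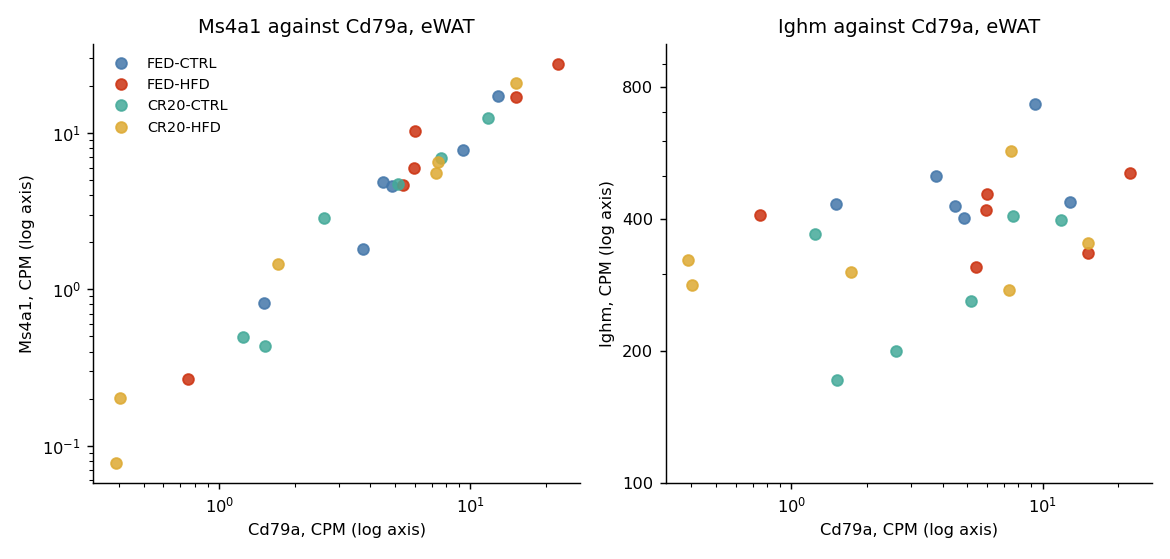
Ms4a1 (left) and Ighm (right) against Cd79a in eWAT, in CPM on log axes, with 1 point per mouse. Ms4a1 is low where Cd79a is low, to 0.0774 CPM, while Ighm stays between 172 and 728 CPM over the whole range of Cd79a.

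All 17 genes of the B cell and plasma cell list were tested in eWAT. In FED-HFD against FED-CTRL 0 were called by edgeR, 1 had an unadjusted p under 0.05 beside 25.7% of all genes, and 16 of 17 had a log2FC above 0 (median 0.67 against -0.00 over all genes). In CR20-HFD against FED-HFD 1 was called lower, where 4.78% of all genes were, 2 had an unadjusted p under 0.05 beside 29.8% of all genes, 15 were below 0, and the median was -0.75. The call was Cd22, an inhibitory receptor of B cells, with 2.88, 5.58 and 12.3 CPM in FED-CTRL, 4.13, 14.3 and 27.4 in FED-HFD and 1.86, 3.57 and 11.6 in CR20-HFD (log2FC -1.71, SE 0.507, adjusted p 0.0259). The groups overlapped, and against FED-CTRL its log2FC in FED-HFD was 1.21 (adjusted p 0.123). The call ended in 4 of 12 fits with 1 mouse left out and was -1.76 without the 5 libraries (adjusted p 0.0490).

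Next in p were Ighd, the IgD gene (log2FC -0.98 in CR20-HFD against FED-HFD, adjusted p 0.0370, under the fold threshold), and the complement receptor Cr2 (-1.30, adjusted p 0.366). In FED-HFD against FED-CTRL they were Fcrla (1.00, adjusted p 0.361) and Ighm (-0.27, adjusted p 0.467).

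Nkg7 in eWAT ran from 1.29 to 6.12 CPM, with medians of 3.53 in FED-CTRL, 3.95 in FED-HFD, 3.08 in CR20-CTRL and 2.73 in CR20-HFD. Its log2FC was 0.09 in FED-HFD against FED-CTRL (adjusted p 0.880) and -0.55 in CR20-HFD against FED-HFD (SE 0.307, adjusted p 0.241). Of 15 NK and cytotoxic genes 12 were tested, and edgeR called 0 in these 2 comparisons, with 1 and 3 at an unadjusted p under 0.05 beside 25.7% and 29.8% of all genes. In CR20-HFD against FED-HFD all 12 were below 0 (median -0.49), and the activating receptors Klrk1 and Ncr1 had log2FC of -0.89 and -0.85 (adjusted p 0.0130 and 0.0378), under the fold threshold. Klre1 had -0.87 (adjusted p 0.149).

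In FED-HFD against FED-CTRL, Klrk1, Klrd1 and Klrb1c had log2FC of 0.63, 0.54 and 0.46 (adjusted p 0.0843, 0.267 and 0.346), and the list's median was 0.27. The most abundant gene, the chemokine gene Ccl5, had medians of 5.25, 6.17 and 5.05 CPM in FED-CTRL, FED-HFD and CR20-HFD. Summed over the list, the medians were 34.2, 39.2, 25.9 and 28.8 CPM in FED-CTRL, FED-HFD, CR20-CTRL and CR20-HFD.

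**Figure D5:**
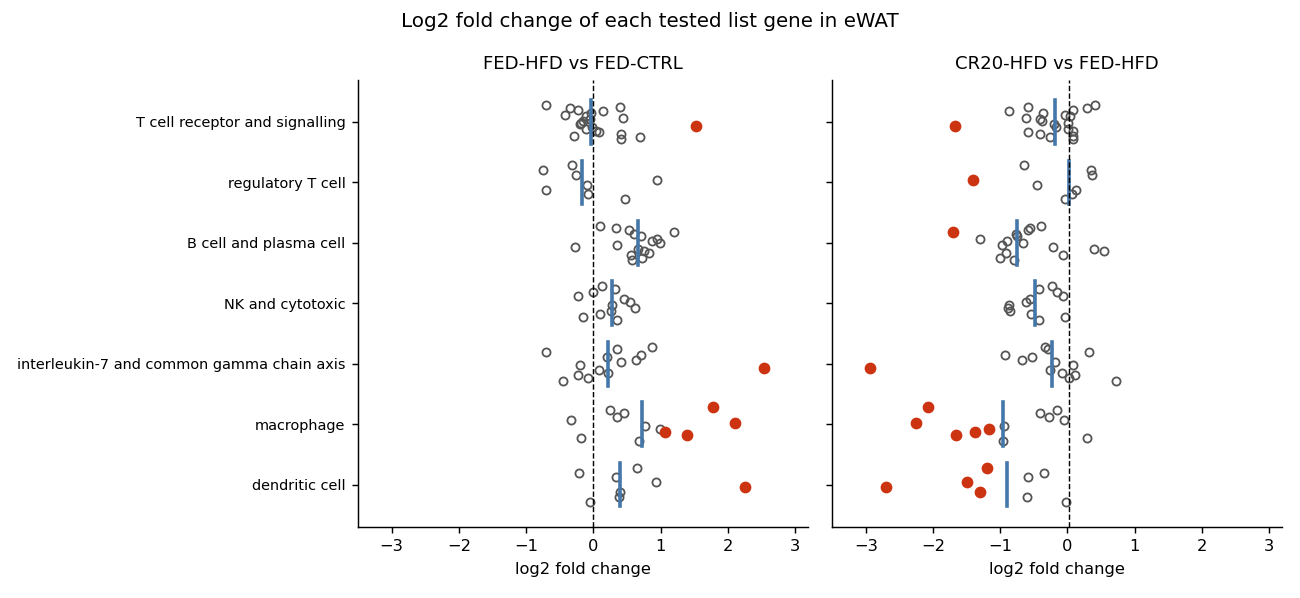
Log2FC of each tested gene of 7 lists in eWAT for FED-HFD against FED-CTRL (left) and CR20-HFD against FED-HFD (right), which share the FED-HFD mice. Filled points are called, the thick bar is the list's median and the dashed line the median of all genes. The T cell list is centred near 0 (medians -0.04 and -0.18) and the macrophage list is not (0.72 and -0.95).

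The remaining lists give the other cells of the eWAT samples in the same 2 comparisons. Of 6 neutrophil genes 2 were tested and 0 called (S100a8 most abundant), of 6 mast cell genes 5 were tested and 0 called (Cma1), and of 5 erythrocyte genes 4 were tested and 0 called (Hba-a1), by edgeR, with 1 and 2, 0 and 0, and 0 and 3 at an unadjusted p under 0.05 beside 25.7% and 29.8% of all genes. Of 8 epididymis genes 1 was tested (Spink2, the most abundant) and 0 called, with 0 at such a p and Lcn5, Lcn9 and Cst8 at 0 in all libraries. Of 6 pituitary genes 2 were tested and 0 called, with 0 at such a p (Gh most abundant). Among 6 adipocyte genes, Cfd and Retn were called higher in CR20-HFD against FED-HFD (log2FC 1.49 and 1.02), where 0.714% of all genes were. The call of Retn ended in 10 of 12 fits with 1 mouse left out and without the 5 libraries (log2FC 0.99). The adipocyte list summed to medians of 17235, 14197, 17221 and 19820 CPM in FED-CTRL, FED-HFD, CR20-CTRL and CR20-HFD. Of the 5 hepatocyte genes, Apoa1 and Ttr were called higher in FED-HFD against FED-CTRL and lower in CR20-HFD against FED-HFD (log2FC 6.49 and -5.60 for Apoa1). These are the transcripts of mice 10 and 13 named above. Both genes were also called lower in the interaction (log2FC -10.56 and -10.60). Of all genes, 4.18%, 4.78% and 2.23% were called in these directions. All these calls of Apoa1 and Ttr ended without the 5 libraries.

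In liver the members were low and none was called. In FED-HFD against FED-CTRL edgeR called 0 of 5, where 0.0218% of all genes were called higher and 0.0725% lower, and in CR20-HFD against CR20-CTRL 0 of 5, where 0.0798% were higher and 0.297% lower. In CR20-HFD against FED-HFD, in CR20-CTRL against FED-CTRL and in the interaction it called 0 of 5, where 0% of all genes were called. Members with an unadjusted p under 0.05 numbered 1 (Cd4), 1 (Cd4), 0, 0 and 0 in these 5 comparisons, beside 6.66%, 9.57%, 3.58%, 2.17% and 1.76% of all genes, and limma voom with or without quality weights and DESeq2 called 0 members in each. DESeq2 called 34, 86, 1, 0 and 0 of all genes, voom with weights 37, 67, 0, 0 and 0, and voom without weights 12, 25, 0, 0 and 0. The median log2FC of the 5 was 0.31, 0.41, 0.14, -0.03 and 0.26.

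Cd4 in liver had a lowest, median and highest level of 3.17, 3.57 and 5.17 CPM in FED-CTRL, 3.55, 6.29 and 10.6 in FED-HFD, 1.75, 3.39 and 7.22 in CR20-CTRL, and 3.70, 5.48 and 14.3 in CR20-HFD. The highest was CR20-HFD 7, and the groups overlapped. The log2FC of the fatty diet was 0.73 in FED offspring (SE 0.335, adjusted p 0.707, exact permutation p 0.0455) and 0.91 in CR20 offspring (SE 0.335, adjusted p 0.345, exact permutation p 0.0519), and the interaction was 0.18 (adjusted p 0.999).

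The other liver members stayed under 3 CPM in all libraries. Cd3e ran from 0.273 to 1.64 CPM, Cd3d from 0.0775 to 1.44, Cd79a from 0.145 to 1.92 and Nkg7 from 0.643 to 2.76. Of the members that failed the filter, Cd8a had at most 20 counts in a library, Foxp3 at most 7, Ms4a1 at most 16 and Il7r at most 25, in CR20-HFD 7, which was also highest for Cd4. Of the genes on the T cell, regulatory T cell, B cell, NK and interleukin-7 lists, 17, 3, 11, 10 and 12 were tested and 0 were called in any of the 5 comparisons by edgeR, with 0 to 2 at an unadjusted p under 0.05 for each list and comparison beside 1.76% to 9.57% of all genes. The most abundant were Trbc2, Tnfrsf18, Igkc, Ccl5 and Il15ra.

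In pituitary 0 of 4 members were called by edgeR in each of the 5 comparisons, where 0% of all genes were called. Those with an unadjusted p under 0.05 numbered 1 (Nkg7) in FED-HFD against FED-CTRL, 2 in CR20-HFD against FED-HFD, 1 (Cd4) in CR20-HFD against CR20-CTRL, 0 in CR20-CTRL against FED-CTRL and 1 (Cd4) in the interaction, beside 9.64%, 6.77%, 7.28%, 17.3% and 11.0% of all genes. The 3 other tools called 0 members as well. Of all genes, limma voom with quality weights called 284 in CR20-CTRL against FED-CTRL and 0 in the others, DESeq2 called 19, 0, 1, 350 and 2 in this order, and voom without weights 0. The median log2FC of the 4 was 0.32, -0.20, 0.44, -0.16 and -0.08.

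Cd4 in pituitary had a lowest, median and highest level of 2.66, 3.04 and 4.26 CPM in FED-CTRL, 2.93, 3.41 and 4.17 in FED-HFD, 2.27, 2.75 and 4.15 in CR20-CTRL, and 2.87, 4.301 and 6.49 in CR20-HFD. In CR20-HFD, 4 of 6 mice were above all CR20-CTRL mice. The log2FC between those groups was 0.64 (SE 0.178, adjusted p 0.517, exact permutation p 0.0152), and the interaction was 0.56 (adjusted p 0.432), so neither passed.

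Nkg7 in pituitary was highest in FED-HFD 40 and 13, at 2.96 and 2.73 CPM, and had medians of 0.980 in FED-CTRL, 1.58 in FED-HFD, 0.843 in CR20-CTRL and 1.15 in CR20-HFD. Its log2FC in FED-HFD against FED-CTRL was 0.81 (SE 0.289, adjusted p 0.338, exact permutation p 0.0823). Of 8 NK and cytotoxic genes tested there, 6 had an unadjusted p under 0.05 in that comparison, beside 9.64% of all genes. By edgeR 0 of the 8 were called, and their median log2FC was 0.67. Other lists lay above 0 there too, as 11 of 12 macrophage genes did (median 0.34, 5 at such a p) and 6 of 6 dendritic cell genes (median 0.45), with 0 called. The pituitary library of FED-HFD 10 held 64.3 CPM of the adipocyte list against a median of 0.696. Cd79a had log2FC of 0.29 (adjusted p 0.621) in the same comparison and 0.31 in CR20-CTRL against FED-CTRL (adjusted p 0.350), its largest. Cd3d did not pass 18 counts in any library.

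Of the T cell, regulatory T cell, B cell, NK and interleukin-7 lists, 15, 4, 7, 8 and 12 genes were tested in pituitary and 0 were called by edgeR in any comparison, with 0 to 6 at an unadjusted p under 0.05 for each list and comparison beside 6.77% to 17.3% of all genes. The most abundant were Thy1 (median 168 CPM, against 24.2 in eWAT), Tnfrsf18, Ighm, Ccl5 and Jak1. Thy1 is also a gene of neurons, and which cells carried it was not tested. Ctla4 was at 0 in all pituitary libraries.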

How the data were processed

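Read counts of 72 libraries, deposited by the authors, were used as they are: the authors checked reads with FastQC, trimmed them with Trimmomatic, aligned them with STAR to GRCm39 (Ensembl 104) and counted them per gene with Subread featureCounts. The strand setting is not stated, and the paper names both a total RNA and an mRNA kit. The 9 members and the gene lists were chosen with earlier results of these data known.

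Each tissue was fitted apart with edgeR 4.0.16 (R 4.3.3), as quasi-likelihood models of 24 libraries with 4 group means, filterByExpr and TMM factors. Exact permutation p used mean log2 CPM with a prior count of 2. The code was tested on simulated data. Python 3.11.15, numpy 2.4.6, pandas 2.3.3, scipy 1.17.1 and matplotlib 3.10.9 made the summaries and figures.

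Named genes are the members, and from each lymphocyte and interleukin-7 list in eWAT the 3 with the smallest p in FED-HFD against FED-CTRL and in CR20-HFD against FED-HFD and the most abundant. In liver and pituitary they are called genes and the most abundant, and from lists of other cells the most abundant and those at 0. For Il7r, Cd3e and Cd79a they include the 5 genes most like each. Genes outside this rule were picked after their values were seen.

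Alternatives were limma 3.58.1 voom with and without quality weights, DESeq2 1.42.0, edgeR with size factors from DESeq2, edgeR on all genes or on those above 1 CPM in 6 or more libraries, fits of only the groups compared, the range of the animal number as covariate, a fold threshold of 0.58, and each mouse left out. Leaving out 5 eWAT libraries with over 3 CPM of Apoa1, Adam7 or Crisp1, and summing lists without their most abundant gene, were added after the data were seen. No library was left out otherwise.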

Additional observations from a re-analysis of the deposited data

Results flagged for a closer look

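Il7r in eWAT stood out by its interaction of the fatty diet and the dam's diet, with a log2FC of -2.93 (edgeR adjusted p 0.0322). That call was lost with limma voom with quality weights (-2.02, adjusted p 0.101), with voom without them (-2.47, adjusted p 0.141), without the 5 libraries with liver or epididymis transcripts (-2.93, adjusted p 0.0880) and in 9 of 24 fits with 1 mouse left out. Of all genes, 2.23% were called lower in the same interaction. Among them were 4 macrophage genes, Itgax and the hepatocyte genes Apoa1 and Ttr, whose calls also ended without the 5 libraries. The log2FC of Apoa1 and Ttr went from -10.56 and -10.60 to -1.33 and -0.68 without those libraries. Those of Adgre1, Cd68, Csf1r, Fcgr1 and Itgax went from -2.12, -2.33, -1.11, -1.20 and -3.06 to -2.25, -2.52, -1.21, -1.25 and -3.02. The share of myeloid cells in the Il7r values was not tested.

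The other 3 items are single samples far from the 5 others of their group, on log2 CPM. Cd3d in eWAT of CR20-CTRL 4 was lowest at -0.99, with the others at 0.17 to 0.82, and that library also held epididymis transcripts. Cd3d in pituitary of FED-HFD 12 was lowest at -3.45, where it had 0 counts, with the others at -1.28 to -0.07. Cd79a in pituitary of CR20-HFD 31 was highest at 2.99, with the others at 2.08 to 2.41. Of 68 groups looked at, 3 held such a sample, and about 1 in 20 would by chance.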

How the results depend on the processing

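The member counts kept their value in 134 of 137 comparisons with the other settings and in 207 of 216 with 1 mouse left out. The interaction count in eWAT, 1 (Il7r), was 0 with voom with quality weights and 0 with voom without them. It was also 0 without the 5 libraries with liver or epididymis transcripts, and 0 to 1 with 1 mouse left out (0 in 9 of 24 fits). Il7r kept a log2FC of -2.93 without the 5 libraries and of -2.90 to -2.76 in those 9 fits. The macrophage genes Adgre1 and Cd68 lost their interaction calls in the same fits. The cause was not tested. Il7r kept its direction and call in FED-HFD against FED-CTRL (2.25 to 2.74) and CR20-HFD against FED-HFD (-3.32 to -2.60) in the other settings.

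Of 85 member log2FC, 50 kept their sign throughout. The 35 that turned were not called with edgeR on all libraries, with adjusted p of at least 0.495 and a size of at most 0.93 there, and the cause was not tested. No paired analysis was possible because the groups of a tissue hold different mice and the labels do not give the dam of a mouse. The paper divides the pups of a dam between diets and feeds the dams in matched pairs, so litters may link mice of different groups, and the number range used as a covariate is not a litter. The low counts of Cd3e, Cd3d, Cd8a and Foxp3 limit what can be seen.

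The log2FC that turned sign in the other settings (36 values) are these. In eWAT, FED-HFD against FED-CTRL: Cd3d -0.0352 became 0.0141 (number range) and 0.0422 (5 libraries out), Nkg7 0.0927 became -0.0280 (voom). In eWAT, CR20-HFD against FED-HFD: Cd3e -0.0393 became 0.41 (voom with weights) and 0.24 (voom) and 0.39 (5 libraries out), Foxp3 -0.64 became 0.20 (voom with weights). In eWAT, CR20-HFD against CR20-CTRL: Cd3e -0.0623 became 0.16 (voom with weights) and 0.0525 (voom) and 0.13 (number range), Il7r -0.39 became 0.23 (voom with weights), Ms4a1 0.33 became -0.39 (voom with weights) and -0.32 (voom) and -0.0745 (number range), Cd79a 0.13 became -0.32 (voom with weights) and -0.35 (voom) and -0.25 (number range) and -0.0497 (5 libraries out). In eWAT, CR20-CTRL against FED-CTRL: Cd3d -0.0093 became 0.24 (5 libraries out), Il7r -0.0143 became 0.0403 (number range), Ms4a1 -0.41 became 0.11 (5 libraries out), Cd79a -0.29 became 0.14 (5 libraries out), Nkg7 -0.25 became 0.0525 (5 libraries out). In eWAT, the interaction: Foxp3 -0.93 became 0.20 (voom with weights). In liver, CR20-HFD against FED-HFD: Cd4 0.14 became -0.0822 (voom with weights). In liver, CR20-HFD against CR20-CTRL: Cd3d -0.23 became 0.31 (voom with weights), Cd79a 0.23 became -0.0088 (number range). In liver, CR20-CTRL against FED-CTRL: Cd4 -0.0422 became 0.0493 (number range), Cd79a -0.0306 became 0.0785 (number range). In liver, the interaction: Cd4 0.18 became -0.0749 (voom with weights). In pituitary, FED-HFD against FED-CTRL: Cd3d 0.36 became -0.24 (voom with weights). In pituitary, CR20-HFD against FED-HFD: Cd3d -0.42 became 0.40 (voom with weights), Cd79a 0.0081 became -0.0167 (voom with weights) and -0.0108 (voom) and -0.0012 (only groups compared). In pituitary, CR20-HFD against CR20-CTRL: Cd79a -0.0146 became 0.0371 (voom with weights).

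With 1 mouse left out, 69 values of 29 results turned, and the lowest and highest of each are these. In eWAT, FED-HFD against FED-CTRL: Cd3d -0.14 to 0.0484, Nkg7 -0.11 to 0.25. In eWAT, CR20-HFD against FED-HFD: Cd3e -0.20 to 0.35. In eWAT, CR20-HFD against CR20-CTRL: Cd3e -0.21 to 0.19, Ms4a1 -0.73 to 0.91, Cd79a -0.51 to 0.58, Nkg7 -0.34 to 0.0101. In eWAT, CR20-CTRL against FED-CTRL: Cd3d -0.15 to 0.17, Il7r -0.18 to 0.18, Ms4a1 -0.99 to 0.24, Cd79a -0.75 to 0.0631. In eWAT, the interaction: Ms4a1 -1.56 to 0.0842, Cd79a -1.11 to 0.0079. In liver, FED-HFD against FED-CTRL: Cd79a -0.20 to 0.17, Nkg7 -0.0017 to 0.26. In liver, CR20-HFD against FED-HFD: Cd4 -0.21 to 0.34, Cd79a -0.11 to 0.43, Nkg7 -0.25 to 0.0136. In liver, CR20-HFD against CR20-CTRL: Cd3d -0.39 to 0.0484, Cd79a -0.13 to 0.46. In liver, CR20-CTRL against FED-CTRL: Cd3e -0.0945 to 0.55, Cd3d -0.0577 to 0.41, Cd4 -0.33 to 0.10, Cd79a -0.26 to 0.15. In liver, the interaction: Cd4 -0.17 to 0.47, Cd79a -0.0789 to 0.51. In pituitary, CR20-HFD against FED-HFD: Cd79a -0.13 to 0.0767. In pituitary, CR20-HFD against CR20-CTRL: Cd79a -0.15 to 0.13. In pituitary, the interaction: Cd3d -0.23 to 0.52.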
